A study of Mus musculus with 4 samples.

Results

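Malat1, Neat1, Tug1 and Rn7sk are noncoding RNAs known from the cell nucleus, and the places on them that came down with the RNA-binding protein Musashi-1 (Msi1) were read from 4 lists of CLIP-seq peaks. CLIP-seq fixes proteins to RNA with ultraviolet light, isolates a chosen protein with an antibody and sequences the pieces of RNA attached to it. The members were chosen by position: every minus-strand peak that overlaps one of 4 windows of the mouse build mm9, which are chr19:5795690-5802671 for Malat1, chr19:5824700-5845500 for Neat1, chr11:3539700-3548800 for Tug1 and chr9:78022900-78023300 for Rn7sk. The windows themselves were picked on measured values, the peak numbers, shared intervals and score ranks of these same lists, so those values are given below as a description without a test. They hold 83 of the 240811 peaks of the series.

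Of the 4 libraries of intestinal epithelial cells, 2 came from wild-type control mice that got no doxycycline, with crypts as the material. The other 2 came from TRE-Msi1 mice given doxycycline for 24 h, with total epithelial cells as the material. TRE-Msi1 is an Msi1 transgene that doxycycline switches on; the transactivator or promoter that limits it to a cell type, the strain and the age of the mice are not given here. All 4 libraries were pulled down with the same Msi1 antibody, and none is a control without antibody or without light, so a peak is a called place, and binding by Msi1 itself was not shown for any. Genotype, doxycycline and the cells taken differ together between the groups and cannot be told apart.

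Malat1 is an abundant long noncoding RNA of nuclear speckles, the bodies where splicing factors gather, and its 3′ end is cut off to release a small tRNA-like RNA. Neat1, its neighbour on the chromosome, is the scaffold of paraspeckles; a short and a long isoform share the same 5′ end, and the long one builds the body. Tug1 is a spliced long noncoding RNA found in the nucleus and also in the cytoplasm. Rn7sk is the gene of 7SK, a small RNA made by RNA polymerase III that, in a complex with Larp7 and Hexim proteins, holds the elongation factor P-TEFb inactive. Musashi proteins are best known as cytoplasmic regulators of mRNA translation that recognise short UAG-containing sites. The lists carry no information on where in the cell an RNA was, so the nuclear label rests on this background alone. Markers of the tissue were not checked, since lists of peaks give no level of an RNA per cell type. No mm9 annotation was used either.

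The lists differ in length and form, which touches every number below. The wild-type lists hold 4863 (replicate 1) and 5578 (replicate 2) peaks, and the TRE-Msi1 lists 189594 (replicate 1) and 40776 (replicate 2). Peaks of TRE-Msi1 replicate 1 had a median width of 40 bp, against 74 to 75 bp in the other lists, and 70.8% of them lay on the plus strand, against 50.9 to 51.5%. In wild-type replicate 1 all authors' scores are 0, so its peaks were ranked by the order of the rows. The number of reads behind each list is unknown.

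Peaks were called on all 4 RNAs in all 4 libraries, and the RNA with the most peaks was not the same in every library. Together the RNAs carried 11 peaks in wild-type replicate 1, 11 in wild-type replicate 2, 24 for TRE-Msi1 replicate 1 and 37 for TRE-Msi1 replicate 2. Both TRE-Msi1 lists thus lay above both wild-type lists in number. A number of peaks does not measure the amount of an RNA. In such bulk material, more cells that hold an RNA could also not be told apart from more of it per cell. Tug1 had the most in wild-type replicate 1 (5 of 11) and in TRE-Msi1 replicate 1 (17 of 24). Malat1 had the most in wild-type replicate 2 (5 of 11), and Neat1 in TRE-Msi1 replicate 2 (18 of 37). The windows differ in length, and per kb of window Rn7sk had the most in every library, 2.49, from its 1 peak. The map of peaks along each window shows where they fell, and the bar plot their numbers.

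**Figure D1:**
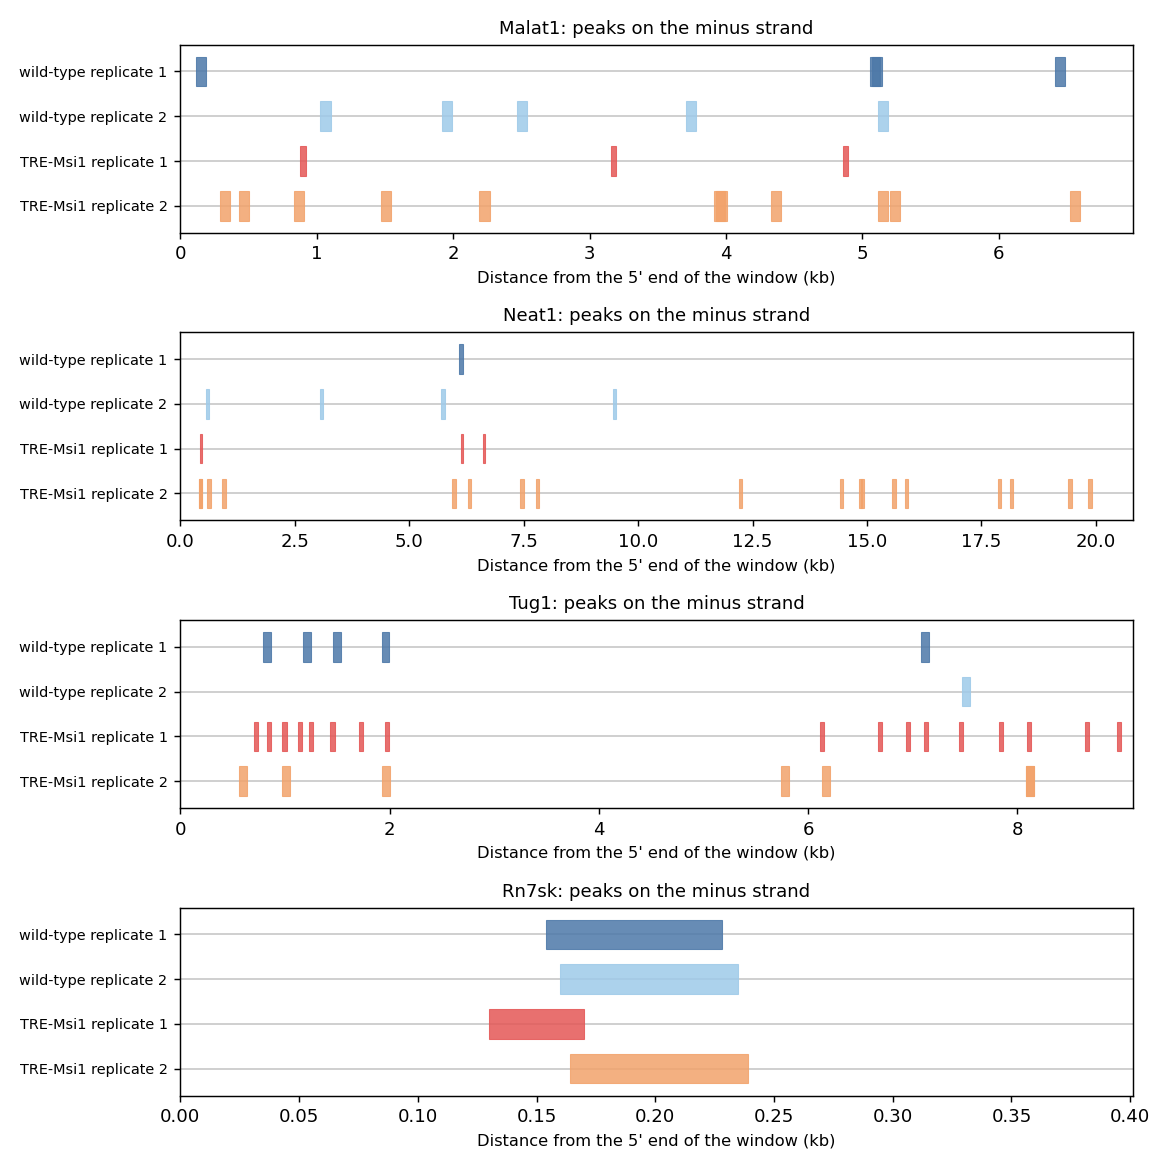
Peaks on the minus strand of the 4 windows, drawn to scale as boxes against the distance from the 5′ end of each window in kb, with 1 line per library. On Rn7sk the boxes of all 4 libraries overlap, on Tug1 no library has a peak between 2.003 and 5.742 kb, and on Neat1 the peaks beyond 9.526 kb all belong to TRE-Msi1 replicate 2.

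**Figure D2:**
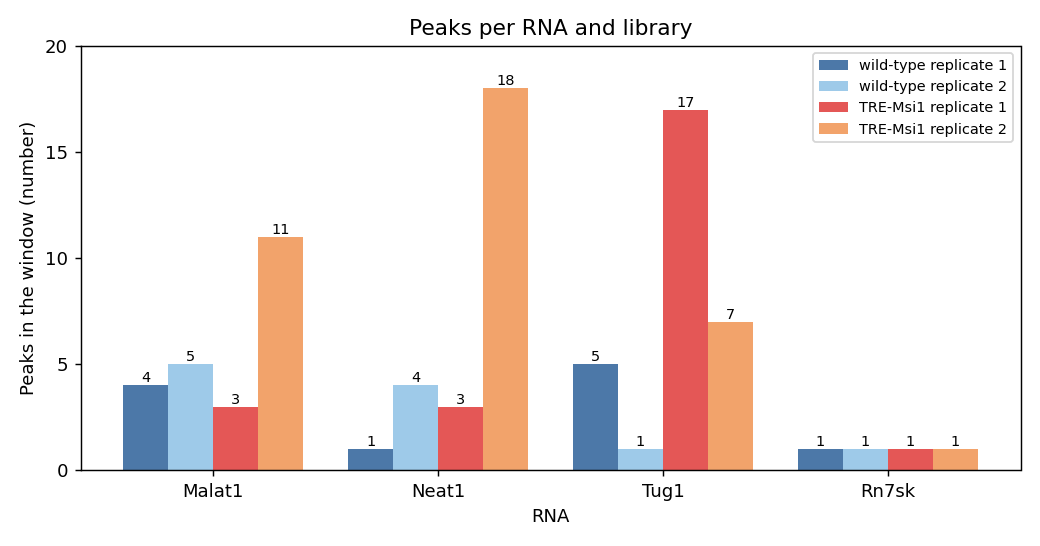
Number of peaks in each window (bars, with the number above) for the 4 libraries. Tug1 is highest in TRE-Msi1 replicate 1 with 17 peaks, Neat1 in TRE-Msi1 replicate 2 with 18, and Rn7sk has 1 peak in every library.

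Set against the length of the lists, the order of the groups turns round. The geometric mean of peaks on the 4 RNAs was 29.8 in TRE-Msi1 and 11 in wild-type libraries, 2.71-fold, whereas the whole lists were 16.9-fold longer. Peaks on the 4 RNAs made up 0.226% of the wild-type replicate 1 list (95% Wilson interval 0.126 to 0.405%) and 0.197% of wild-type replicate 2 (0.110 to 0.353%). They made up 0.0907% of TRE-Msi1 replicate 2 (0.0658 to 0.125%) and 0.0127% of TRE-Msi1 replicate 1 (0.00851 to 0.0188%). With every list cut to the length of the shortest by rank, the numbers were 11, 11, 4 and 25 (both wild-type lists, then both TRE-Msi1 lists, replicate 1 first), and the fold was 0.909. After this cut only TRE-Msi1 replicate 2 still lay above the wild-type lists. Intervals here and below cover counting error alone and take peaks as independent. No test was run on values that chose the windows.

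Rn7sk, the shortest of the windows at 401 bp, carried 1 peak in each library, and these overlapped one another. They lay at chr9:78023073-78023146 in wild-type replicate 1, chr9:78023066-78023140 in wild-type replicate 2, chr9:78023131-78023170 for TRE-Msi1 replicate 1 and chr9:78023062-78023136 for TRE-Msi1 replicate 2. It was the only place on the 4 RNAs with a peak from every list, and a reciprocal overlap of 50% left 0. How many such places the whole lists hold was not counted. The middles of the wild-type peaks and of the TRE-Msi1 replicate 2 peak were 190.5, 197 and 201 bp from the 5′ end of the window, while the peak of TRE-Msi1 replicate 1 was centred at 149.5 bp. The stretch common to all 4 was accordingly short, the 6 bases of chr9:78023131-78023136.

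The Rn7sk peak ranked high in every list. It was row 21 of wild-type replicate 1, and its peak name there ends in number 1 for chromosome 9. Its authors' score was 31 in wild-type replicate 2 (percentile 97.46 of the list), 14.7 for TRE-Msi1 replicate 1 (99.96) and 92 for TRE-Msi1 replicate 2 (99.89). Scores are compared only within a list, because their unit is not stated. TRE-Msi1 replicate 1 had a further peak at chr9:78023328-78023367, 28 bp beyond the 5′ edge of the window, at percentile 97.66. The genome holds many copies of 7SK-like sequence, and the sources used here do not say how reads that match several places were treated, so the values of Rn7sk are uncertain in that respect.

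Malat1 had few peaks in 3 libraries and the best-ranked ones of the 4 RNAs in TRE-Msi1 replicate 2. The window held 4 peaks in wild-type replicate 1, 5 in wild-type replicate 2, 3 for TRE-Msi1 replicate 1 and 11 for TRE-Msi1 replicate 2. TRE-Msi1 replicate 1, the longest list, thus had the fewest, so the TRE-Msi1 and wild-type libraries overlap in number. In TRE-Msi1 replicate 2 the 11 peaks covered 765 bp, or 11.0% of the window. Their scores ran from 70 to 161 with a median of 104, and all 11 stood in the top 1% of the list. The lowest of them was at percentile 99.81 and the highest, chr19:5801763-5801837, at 99.96. The name of that highest peak ends in number 1 for chromosome 19.

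Next in TRE-Msi1 replicate 2 came chr19:5797395-5797469 with a score of 155 and chr19:5796075-5796149 with 146, the latter 6.56 kb from the 5′ end and so near the 3′ end of the RNA. The Malat1 peaks of the other lists also ranked high, though less so. They ran from percentile 98.22 to 98.94 by row order in wild-type replicate 1, from 83.9 to 97.1 by score in wild-type replicate 2 and from 98.22 to 98.87 in TRE-Msi1 replicate 1. In wild-type replicate 2 the scores were 28 at chr19:5797480-5797554, 24 at chr19:5798888-5798962, and 16, 13 and 11 at the others.

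On Malat1, places recurred between libraries at 2 of 18 stretches, a stretch being peaks of any list joined where they overlap. The first, chr19:5797480-5797616, lay 5.06 to 5.19 kb from the 5′ end and joined 2 overlapping peaks of wild-type replicate 1 with 1 peak each of wild-type replicate 2 and TRE-Msi1 replicate 2, which had 12 bases in common. In both wild-type lists it held the best-ranked Malat1 peak (chr19:5797543-5797616 in replicate 1, where it was row 52). TRE-Msi1 replicate 1 had no peak there, and its nearest one was at chr19:5797777-5797816, its own best-ranked Malat1 peak with a score of 6.6. The second, chr19:5801753-5801837, joined the top Malat1 peak of TRE-Msi1 replicate 2 with a peak of TRE-Msi1 replicate 1 that scored 5.3. No wild-type peak overlapped it. The other 16 stretches had a peak from a single list. They were spread over the whole window, from 0.112 kb (chr19:5802486-5802559, wild-type replicate 1) to 6.60 kb from the 5′ end, and the longest part without any peak measured 1.14 kb.

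Neat1 carried many peaks in a single library. Its window held 1 peak in wild-type replicate 1, 4 in wild-type replicate 2, 3 for TRE-Msi1 replicate 1 and 18 for TRE-Msi1 replicate 2, so TRE-Msi1 replicate 1 lay within the wild-type range. Per kb of window these are 0.0481, 0.192, 0.144 and 0.865 peaks. Malat1 had 0.573, 0.716, 0.430 and 1.58 peaks per kb in the same libraries, more than Neat1 in each. The Neat1 peaks of TRE-Msi1 replicate 2 also ranked lower than those of Malat1, with scores of 6 to 40, a median of 13, and percentiles from 43.3 to 99.4.

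Peaks beyond the middle of Neat1 came from TRE-Msi1 replicate 2 alone. The other libraries had 1 to 4 Neat1 peaks each, too few to show a spread along the window. In TRE-Msi1 replicate 2, 8 peaks lay before the middle of the window, counted from the 5′ end, and 10 beyond it, between 12.2 and 19.9 kb. In the other 3 libraries all 8 peaks lay before the middle, the farthest at 9.49 kb in wild-type replicate 2. No gene model was used, so peaks were not assigned to an isoform. Near the 5′ end, TRE-Msi1 replicate 2 had 4 peaks within 0.994 kb, among them its best-ranked Neat1 peak, chr19:5845017-5845091, with a score of 40. A peak of TRE-Msi1 replicate 1 at chr19:5845026-5845065 lay inside it. Close by, at chr19:5844833-5844949, a peak of wild-type replicate 2 and one of TRE-Msi1 replicate 2 shared 33 bases.

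A further cluster lay about 6 kb from the 5′ end, with peaks from every library but not at a common base. Wild-type replicate 1 had its sole Neat1 peak there, chr19:5839330-5839403, and TRE-Msi1 replicate 1 had chr19:5839333-5839372 inside it. TRE-Msi1 replicate 2 had peaks on either side, at chr19:5839149-5839223 with a score of 27 and at chr19:5839482-5839556 with 16, and wild-type replicate 2 had one at chr19:5839728-5839802 with a score of 4. The second highest Neat1 score of TRE-Msi1 replicate 2, 28, was at chr19:5838000-5838074. Of 21 stretches on Neat1, 3 had peaks of more than 1 list, and none had peaks of both wild-type lists.

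Tug1 showed the opposite order of the TRE-Msi1 libraries. There were 5 peaks in wild-type replicate 1, 1 in wild-type replicate 2, 17 for TRE-Msi1 replicate 1 and 7 for TRE-Msi1 replicate 2, so both TRE-Msi1 lists lay above both wild-type lists in number. As shares of all peaks listed, the wild-type values were 0.103% and 0.0179% (replicates 1 and 2) and the TRE-Msi1 values were 0.00897% and 0.0172%, so the order by number did not hold by share. The 0.0179% rests on 1 peak. With the lists cut to the length of the shortest by rank, 5, 1, 0 and 3 peaks were left, and the groups overlapped. On Malat1 and Neat1, by contrast, TRE-Msi1 replicate 2 had more peaks than TRE-Msi1 replicate 1, 11 against 3 and 18 against 3. The 17 peaks of TRE-Msi1 replicate 1 had scores of 1.8 to 4.0, with a median of 2.6. Their percentiles ran from 47.7 to 95.6, with a median of 80.8. In TRE-Msi1 replicate 2 the scores ran from 6 to 15.

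The peaks on Tug1 fell into 2 clusters with an empty stretch of 3.74 kb between them, chr11:3543058-3546797, in which no library had a peak. The cluster nearer the 5′ end, 0.565 to 2.002 kb from it, held 4 peaks of wild-type replicate 1, 0 of wild-type replicate 2, 8 of TRE-Msi1 replicate 1 and 3 of TRE-Msi1 replicate 2. The cluster nearer the 3′ end, 5.743 to 8.990 kb from the 5′ end, held 1, 1, 9 and 4. Tug1 is spliced, but whether the empty stretch is intron was not examined, because no mm9 gene model was used here.

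On Tug1, places recurred between lists at 9 of 19 stretches, against 2 of 18 on Malat1, 3 of 21 on Neat1 and the single stretch of Rn7sk. Each of the 9 held a peak of TRE-Msi1 replicate 1. That list covered 7.47% of the Tug1 window, against 1.72% of Malat1 and 0.577% of Neat1. The contrast was not tested, and stretches were not formed over the whole lists. All 5 peaks of wild-type replicate 1 and the single peak of wild-type replicate 2 overlapped a TRE-Msi1 replicate 1 peak. Whole-list shares against TRE-Msi1 replicate 1 alone were not computed. Against at least 1 TRE-Msi1 list they were 58.4% and 20.2% (wild-type replicates 1 and 2). The Wilson interval for 5 of 5, 56.6 to 100%, holds the 58.4%. At chr11:3546798-3546877, the 3′ edge of the first cluster, wild-type replicate 1 and both TRE-Msi1 libraries had a peak and shared 40 bases. The other stretches shared by both TRE-Msi1 libraries were chr11:3547750-3547825, chr11:3542590-3542691 and chr11:3540643-3540717. The last of these is listed 2 times with the same interval in TRE-Msi1 replicate 2, with scores of 15 and 6, and each entry counts as a peak above. The best-ranked Tug1 peak of TRE-Msi1 replicate 1, chr11:3547530-3547569 with a score of 4.0, overlapped a peak of wild-type replicate 1. No stretch had peaks of both wild-type lists.

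Most Malat1 peaks and the Rn7sk peak of each list had a percentile of 90 or more, and Neat1 and Tug1 peaks were spread wider. The lowest Malat1 peak was at percentile 83.9, in wild-type replicate 2. In wild-type replicate 1 the percentile is row order, which was not shown to follow the strength of a peak. A percentile of 90 or more was reached by 4 of 4, 4 of 5, 3 of 3 and 11 of 11 Malat1 peaks (both wild-type lists, then both TRE-Msi1 lists, replicate 1 first) and by the Rn7sk peak in each list. On Neat1 it was reached by 0 of 1, 0 of 4, 0 of 3 and 9 of 18 peaks, and on Tug1 by 0 of 5, 0 of 1, 4 of 17 and 3 of 7. The 3 best-ranked peaks on the 4 RNAs were on Malat1 or Rn7sk in every list. Over the 4 RNAs the counts were 5 of 11, 5 of 11, 8 of 24 and 24 of 37, beside 9.99%, 10.8%, 10.4% and 9.82% of all peaks in the same lists; ranks were among the values that chose the windows. The median percentile was 82.9, 87.6, 82.3 and 93.5.

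**Figure D3:**
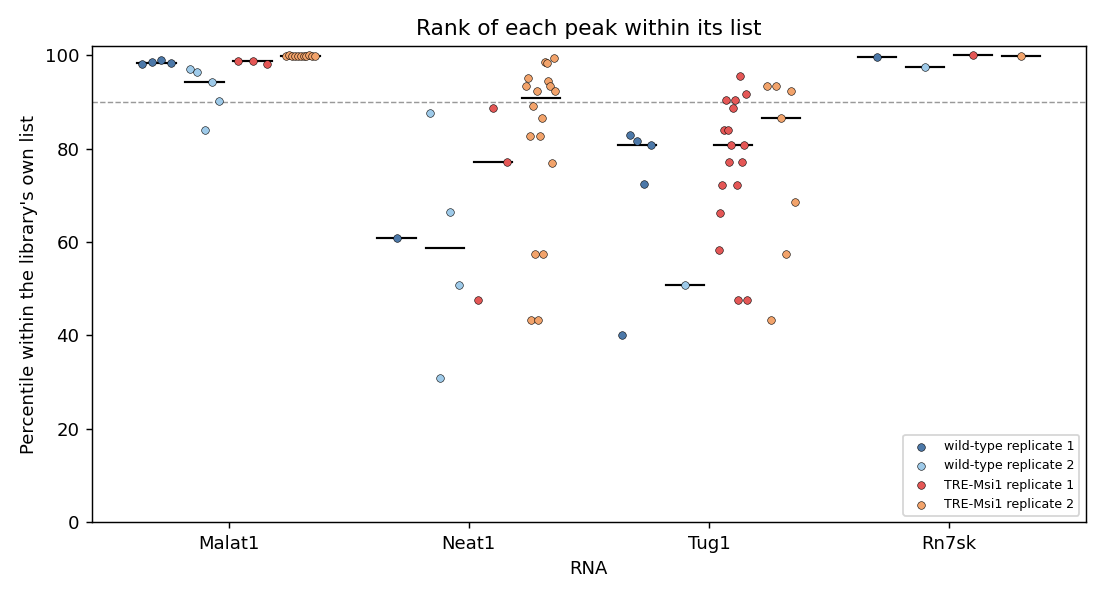
Percentile of each peak within its own list (points; 100 is the top; ranked by the authors' score, or by row order in wild-type replicate 1), by RNA and library, with the median as a bar and a dashed line at 90. Most Malat1 peaks and all Rn7sk peaks lie above the dashed line, whereas Neat1 and Tug1 peaks spread from 30.9 to 99.4.

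How often a peak on these RNAs overlapped a peak of another list, on the same strand and by at least 1 bp, depended on the list. From wild-type replicate 1, 9 of 11 peaks (81.8%, Wilson interval 52.3 to 94.9%) overlapped a peak of at least 1 TRE-Msi1 list, beside 58.4% of its whole list. From wild-type replicate 2 it was 4 of 11 (36.4%, 15.2 to 64.6%), beside 20.2%. Both whole-list shares lie within the intervals of these few peaks. Of the 13 wild-type peaks that overlapped a TRE-Msi1 peak, 6 were on Tug1, 3 on Malat1, 2 on Neat1 and 2 on Rn7sk.

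Between the wild-type libraries, 3 of 11 peaks of replicate 1 (27.3%, 9.75 to 56.6%) overlapped a replicate 2 peak, beside 10.6% of all, and 2 of 11 peaks of replicate 2 (18.2%, 5.14 to 47.7%) a replicate 1 peak, beside 9.38%. They lay on Malat1 and Rn7sk. Between the TRE-Msi1 libraries, 7 of 24 peaks of replicate 1 (29.2%, 14.9 to 49.2%) overlapped a replicate 2 peak, beside 1.18% of its list, and 9 of 37 of replicate 2 (24.3%, 13.4 to 40.1%) a replicate 1 peak, beside 5.67%. Here the whole-list shares lie below the intervals. Shared intervals were among the values that chose the windows, so nothing is read from the gap. Against the wild-type lists, 8 of 24 peaks of TRE-Msi1 replicate 1 (33.3%, 17.97 to 53.3%) and 4 of 37 of TRE-Msi1 replicate 2 (10.8%, 4.29 to 24.7%) overlapped at least 1 wild-type peak, beside 1.24% and 5.19%.

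**Figure D4:**
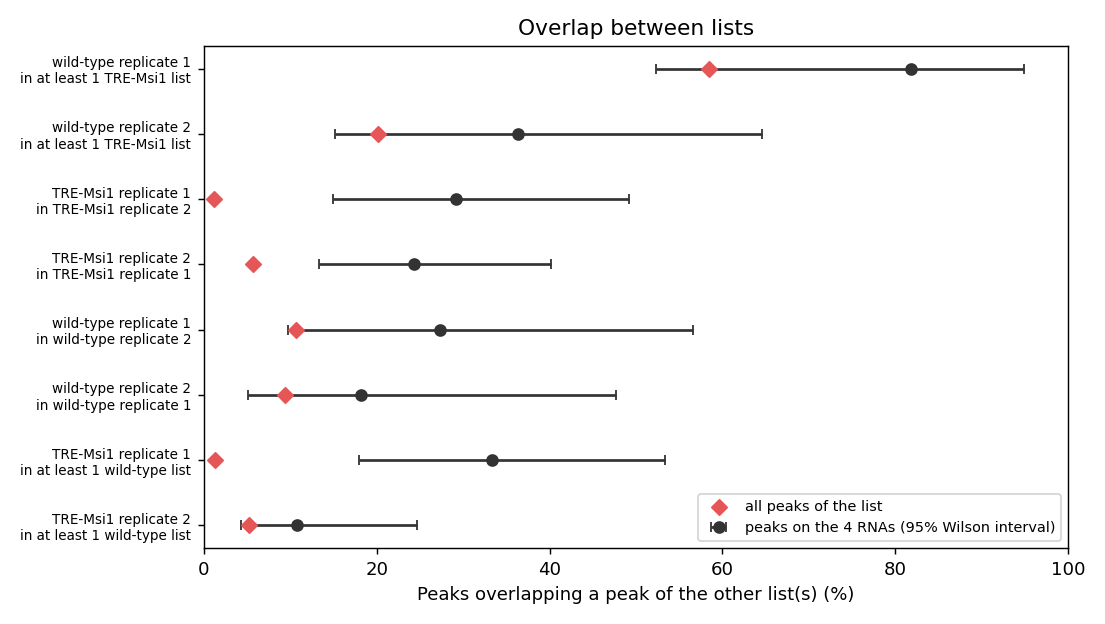
Share of peaks, in %, that overlap a peak of the list or lists named on each line, for peaks on the 4 RNAs (circles, with 95% Wilson intervals) and for the whole list (diamonds). The diamonds lie left of the interval for both directions between the TRE-Msi1 libraries and for TRE-Msi1 replicate 1 in the wild-type lists, and within it elsewhere.

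Recurrence between the TRE-Msi1 libraries was also counted by RNA. In TRE-Msi1 replicate 2, 1 of the 11 Malat1 peaks overlapped a TRE-Msi1 replicate 1 peak (9.09%, 1.62 to 37.7%). On Tug1 it was 5 of 7 (71.4%, 35.9 to 91.8%) and on Neat1 2 of 18 (11.1%, 3.10 to 32.8%). The share of the whole list was 5.67%. TRE-Msi1 replicate 1 had 17 peaks on Tug1 that could be overlapped, against 3 on Malat1 and 3 on Neat1. Of the 5 on Tug1, 2 are the same interval listed 2 times, and the 2 on Neat1 overlap the same TRE-Msi1 replicate 1 peak. The intervals of Malat1 and Tug1 overlap, and those of Neat1 and Tug1 do not, with repeated entries counted. Among all 410 peaks at or above percentile 99 of that list, 39.8% overlapped a TRE-Msi1 replicate 1 peak, and of the 13 such peaks on the 4 RNAs, 3 did. That threshold was set after the values had been seen, and the differences were not tested. Over all libraries, the 83 peaks formed 59 stretches, of which 44 had peaks of 1 list, 12 of 2 lists, 2 of 3 lists and 1 of all 4. Peaks elsewhere were not joined in this way, so these counts do not show more or less sharing than usual. Where peaks of different lists overlapped, in 28 pairs, their middles were 3 to 62.5 bp apart (median 17.25 bp).

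Peaks on the other strand and in the flanks were counted beside the windows. The number of plus-strand peaks within the 4 windows was 0 in each of the 4 lists, including TRE-Msi1 replicate 1, most of whose peaks are on the plus strand. Most pieces of the same lengths, described in the next paragraph, were also empty. In TRE-Msi1 replicate 1, 17.8%, 40.4%, 22.1% and 1.42% held a peak (lengths of Malat1, Neat1, Tug1 and Rn7sk). In the other lists at most 8.25% did, so nothing is read from the 0. In minus-strand flanks as long as each window, on both sides, there were 0 peaks in wild-type replicate 1, 1 in wild-type replicate 2, 4 for TRE-Msi1 replicate 1 and 0 for TRE-Msi1 replicate 2. Just inside the edges lay the Tug1 peak chr11:3539810-3539849 of TRE-Msi1 replicate 1, 110 bp from the 3′ edge at percentile 58.3, and the Malat1 peak chr19:5802486-5802559 of wild-type replicate 1, 112 bp from the 5′ edge at 98.3 by row order. Just outside, besides the peak 28 bp from Rn7sk, the nearest were 4.88 kb beyond the 3′ edge of Malat1 (TRE-Msi1 replicate 1, percentile 12.0), 6.12 kb beyond the 5′ edge of Neat1 (wild-type replicate 2, 30.9) and 19.96 kb beyond the 3′ edge of Tug1 (TRE-Msi1 replicate 1, 72.3).

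How many other places of the same length held as many peaks varied with the RNA and the list. Both strands of all sequences in the lists were cut at fixed steps into pieces as long as each window, leaving out the pieces that touch it. Of 776848 pieces of Malat1's length, 1 had at least 11 peaks in TRE-Msi1 replicate 2, and in the other lists 65 (wild-type replicate 1), 9 (wild-type replicate 2) and 9288 (TRE-Msi1 replicate 1) had at least as many as Malat1. Of 260778 pieces of Neat1's length, 1 had at least 18 in TRE-Msi1 replicate 2, against 3348, 42 and 17622 at Neat1's number in the lists as ordered before. Of 595980 pieces of Tug1's length, 1 had at least 17 in TRE-Msi1 replicate 1 and 141 at least 7 in TRE-Msi1 replicate 2, with 26 and 5101 in wild-type replicates 1 and 2. Rn7sk, with its single peak, was matched by 5407, 6526, 192624 and 46569 of 13525512 pieces of its length. The windows were chosen with these numbers known, so they are a description and support nothing about the RNAs. The windows follow the RNAs while the pieces fall at fixed steps, which favours the windows, and the pieces were not limited to transcribed RNA.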

How the data were processed

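Msi1 CLIP-seq peaks of 4 libraries were analysed, with groups and replicate numbers from the sample titles. Per the submitters' processing notes, Bowtie, HOMER and mm9 were used; the sources used here give no versions, settings or role of each program. The deposited score of a peak has no stated unit and served only to rank peaks within a list, ties at their mean rank. Per the labels' protocols each group came from 2 mice. Percentiles run from 0 to 100 at the top. Windows were taken as 1-based. The members and all lists, windows and rules were chosen with earlier results of these data known. All 4 symbols were found in the RefSeq table of GRCm38.p6, used for names only. Peaks named singly were those in all 4 lists, the 3 best-ranked per list and those nearest an edge; others, given for their rank or place, were chosen after their values were seen. Alternatives were other overlap rules, peak widths and window edges, list cuts, merging, and leaving out each library. Overlap code was tested on simulated lists and checked against bedtools. Software was bedtools 2.31.1 and Python 3.11.15 with matplotlib 3.10.9, scipy 1.17.1, pandas 2.3.3 and numpy 2.4.6.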

Additional observations from a re-analysis of the deposited data

Results flagged for a closer look

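In the flanks of the windows, which lie outside the peaks counted on the 4 RNAs, TRE-Msi1 replicate 1 had 4 minus-strand peaks, above the 0 and 1 of the wild-type lists and the 0 of TRE-Msi1 replicate 2. They were 2 downstream of Malat1, 1 upstream of Neat1 and 1 upstream of Rn7sk. The Rn7sk one lay 28 bp from the window, and no gene model was used to say whether it is still on 7SK. That list is also the longest, and its part in this was not tested.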

How the results depend on the processing

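Cutting the lists to the shortest length turned the fold on the 4 RNAs from 2.71 to 0.909, with 4 peaks left in TRE-Msi1 replicate 1; the cut removes lower-ranked peaks from the longer lists by construction. It also moved the shares of the lists to 0.0823% and 0.514% (TRE-Msi1 replicates 1 and 2), the share of wild-type peaks found in a TRE-Msi1 list from 59.1% to 22.7%, and that of TRE-Msi1 replicate 2 peaks found in replicate 1 from 24.3% to 8%. The top 25% of each list gave shares of 0.658%, 0.502%, 0.0359% and 0.284% (wild-type, then TRE-Msi1, replicates 1 and 2) and 7 peaks in wild-type replicate 2. With minus-strand peaks as the denominator, chosen after seeing the data, the shares were 0.466%, 0.402%, 0.0434% and 0.185%. A reciprocal overlap of 50% left 31.8% of wild-type peaks found and 0 positions in all lists. Leaving out 1 library gave folds of 2.18 to 3.36, wild-type peaks found at 31.8% (without TRE-Msi1 replicate 1) to 81.8% (without wild-type replicate 2; 36.4% without wild-type replicate 1), and 1 to 2 positions in all remaining lists. Windows widened by 1 kb, peaks wholly inside, merging within 50 bp, counting identical intervals once, a distance of 50 bp, resizing and row order left each of these counts within 1.5 times, each share within its interval, and the fold and median percentiles within the spread of the replicates. For single RNAs, widening the windows by 1 kb moved 1 count, Rn7sk in TRE-Msi1 replicate 1, from 1 to 2. The top 25% moved 6 such counts beyond 1.5 times or to 0, among them Tug1 in TRE-Msi1 replicate 1 from 17 to 11. The cut to the shortest length moved 4, among them Neat1 in TRE-Msi1 replicate 2 from 18 to 10. No paired analysis was possible because the results come from no test, and the labels do not say that a number pairs libraries. With depth unknown, a missing peak is no evidence that an RNA went unrecovered there.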
